A study of Mus musculus with 147 samples.

Results

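*Myh6*, *Ccdc80*, *Lrrc15*, *Cox18* and *Pdzrn4* are 5 of the 35438 genes in the deposited tables. They were chosen by their measured values, high counts in WT renin cells and low counts in Renin null cells, so the difference between the genotypes is what chose them and is given as a description. The name under which they were grouped, genes near lost in Renin null cells, held for *Myh6*, *Lrrc15*, *Cox18* and *Pdzrn4*, which had 9, 1, 1 and 1 counts over 96 Renin null wells. It did not hold for *Ccdc80*, which had 15887 counts there and at least 10 counts in 9 wells.

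The cells came from the kidney cortex of adult C57BL/6 mice. WT renin cells were Ren1c+/+ Ren1c-YFP and Renin null cells were Ren1c-/- Ren1c-YFP, so that both carried a transgene in which the 5′ regulatory sequence of Ren1c drives YFP, and both were sorted as YFP-positive, captured singly in wells of the Fluidigm C1 System and converted to cDNA with SMART-Seq v4, which has no molecular identifiers. The gate selects cells in which that sequence is or was active, and mice without renin received saline under the skin after birth, which the WT mice are not stated to have had. The 51 WT wells came from a single capture, and they are treated here as 1 sequencing library, since their labels name none. The 96 Renin null wells were labelled as 2 libraries, YFP1 and YFP2, of 48 wells each, and came from several captures. The labels tie no well to a mouse or a capture. Each genotype was therefore 1 sample and nothing was tested between them, since effects of genotype, capture and library cannot be told apart.

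Summed over wells, WT held 197904443 counts and Renin null 398812805. A WT well had from 26401 to 17124854 counts (median 1525972), a median of 3528 genes and a median of 60.4% mitochondrial counts. A Renin null well had from 3628 to 14505243 counts (median 4107950), a median of 4999.5 genes and 12.4% mitochondrial counts. Limits of no fewer than 100000 counts and 1000 genes and no more than 25% mitochondrial counts were passed by 15 of 51 WT and 57 of 96 Renin null wells. Libraries also stood apart in other ways. WT well 10 had counts of 10791 genes, and 6 Renin null wells also passed 9000 genes. In Renin null, 4 pairs of wells had nearly the same profile (Pearson r above 0.95 across genes), among them YFP2 wells N701-S503 and N712-S505 (named by their indexes), which had 28 and 88 counts of *Ccdc80*. Each of the other pairs joined a YFP1 well to a YFP2 well (r from 0.983 to 0.987). All were kept as separate wells of their libraries unless stated. YFP1 and YFP2 used 46 index pairs in common, WT and YFP1 48, and WT and YFP2 46, by index number. In YFP2, 2 wells carried labels that disagreed on their index and were left out wherever indexes were used.

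The 5 genes have no pathway in common. *Myh6* encodes the alpha myosin heavy chain, the fast motor of heart muscle, next to its paralog *Myh7*, the beta chain, on the same chromosome. *Ccdc80* encodes a secreted protein of the extracellular matrix made by fibroblasts and fat cells. *Lrrc15* encodes a leucine-rich repeat protein of the cell membrane known from activated fibroblasts. *Cox18* encodes a mitochondrial inner membrane protein that helps insert a subunit of cytochrome c oxidase. *Pdzrn4* encodes a PDZ and RING finger protein of the LNX and PDZRN family, whose RING domains are typical of ubiquitin ligases. Renin cells are modified smooth muscle cells of the afferent arteriole that make and release renin, encoded by *Ren1*, and none of the 5 genes is among their usual markers.

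On GRCm38, with GENCODE M21 gene models, *Myh6* (ENSMUSG00000040752.16) lies at chr14:54941921-54966927 on the minus strand, *Ccdc80* (ENSMUSG00000022665.15) at chr16:45093402-45128077 on the plus strand, *Lrrc15* (ENSMUSG00000052316.9) at chr16:30269302-30283256 on the minus strand, *Cox18* (ENSMUSG00000035505.14) at chr5:90214724-90224001 on the minus strand and *Pdzrn4* (ENSMUSG00000036218.16) at chr15:92396881-92771819 on the plus strand. All 5 are protein coding, and the counts are summed over the annotated transcripts of a gene. An antisense gene, *Gm49130*, shares exon bases with *Myh6*, and whether the counting used strand is not given in the sources used here. The other listed genes share no exon base with another annotated gene.

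Reads of *Myh6* can also be shared with *Myh7*. Their longest annotated coding sequences (5814 and 5805 bases) were identical at 5314 of 5805 aligned bases (91.5%), and 34.0% of the 31-base words of *Myh6* also occur in *Myh7*. A stretch of 150 coding bases within 1 exon, chosen because its identity is closest to that of the whole, is shown for both, with the 13 bases that differ in capitals. It lies at chr14:54958486-54958635 in *Myh6* and at chr14:54987257-54987406 in *Myh7*, both on GRCm38 and read 5′ to 3′ on the minus strand. The reads were 150 bases long before trimming, so an untrimmed read is longer than any lower-case run here. A shorter word, such as one of 31 bases, that lies wholly within such a run matches both genes.
Myh6: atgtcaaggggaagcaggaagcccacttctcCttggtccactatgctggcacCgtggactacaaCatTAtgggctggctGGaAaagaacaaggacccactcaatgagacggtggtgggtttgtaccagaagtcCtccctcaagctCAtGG
Myh7: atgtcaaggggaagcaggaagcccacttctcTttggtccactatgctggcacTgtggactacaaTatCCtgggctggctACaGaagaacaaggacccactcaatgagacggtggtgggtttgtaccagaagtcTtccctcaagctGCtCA
Of the 7 WT wells with at least 10 counts of *Myh7*, 6 also held *Myh6* in the sense defined further on (wells 7, 10, 28, 40, 44 and 50). Well 10 had 8343 counts of *Myh6* and 1502 of *Myh7*, well 40 had 12602 and 157, and well 44 had 26379 counts of *Myh6* with *Myh7* at 12.8 CPM. WT well 6 had 37546 counts of *Myh6* and 4 of *Myh7*, well 18 had 14166 and 0, and well 43 had 11008 and 0. In wells 28 and 50 the order was turned, with 2308 counts of *Myh6* and 6289 of *Myh7* in well 28 and 88 and 1632 in well 50. The part of shared reads in the counts of either gene was not tested.

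*Ren1*, the deleted gene, checks the genotype labels. It had from 538 to 4294010 counts in the 51 WT wells (median 23707), or 96023 counts per 1000000 counts (CPM) of the WT sum. In Renin null it had 54 counts in all, with 80 of 96 wells at 0 and the highest well at 17. The 2 genotypes did not overlap, and the log2 ratio of CPM, Renin null over WT, was −19.44, the lowest of the 18720 genes with a ratio. *EYFP*, the reporter behind the sort, reached 100 counts in 6 of 51 WT wells and 25 of 96 Renin null wells.

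**Figure D1:**
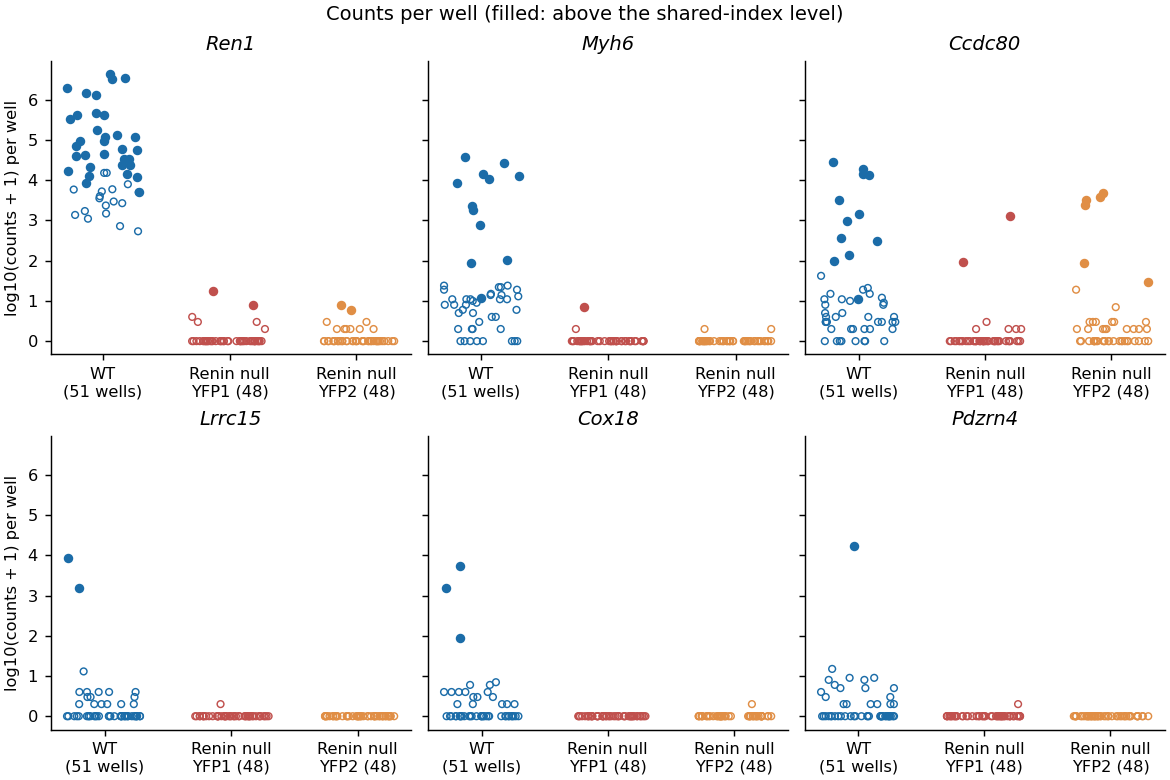
Counts per well, as log10(counts + 1), of *Ren1* and the 5 genes in the WT library (51 wells) and in the Renin null libraries YFP1 and YFP2 (48 wells each). Each point is a well, and filled points lie above the level that counts of wells with a shared sequencing index reach. In Renin null, *Lrrc15*, *Cox18* and *Pdzrn4* had a count in 1 well each, while *Ccdc80* reached 4901 counts.

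*Myh6* had the most WT counts of the 5, which is not a comparison of levels, since longer transcripts give more counts. Its 115442 counts made 583 CPM (95% exact Poisson interval 580 to 587, counting error only), and its 9 Renin null counts made 0.0226 CPM (0.0103 to 0.0428). The log2 ratio was −14.66 (exact conditional interval −15.79 to −13.73). Per well, WT counts ran from 0 to 37546 with a median of 10. Of the Renin null counts, 6 were in well 71, which had only 11686 counts of all genes, so that these 6 made 513 CPM there. Well 64 and YFP2 wells N711-S503 and N712-S505 had 1 count each and the other 92 had none, so the highest WT wells lay far above every Renin null well in counts while the 8 WT wells at 0 did not differ from them.

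*Ccdc80* had 81967 counts in WT, or 414 CPM (411 to 417), and 15887 in Renin null, or 39.8 CPM (39.2 to 40.5). The log2 ratio was −3.38 (−3.40 to −3.35), which put it at place 1109 of 18720, against places 4, 6, 9 and 3 for *Myh6*, *Lrrc15*, *Cox18* and *Pdzrn4*. The 2 Renin null libraries were apart, at 7.50 CPM in YFP1 and 66.8 CPM in YFP2, which gave log2 ratios of −5.79 and −2.63. In YFP1 the wells with at least 10 counts were well 55 with 93 and well 86 with 1262. In YFP2 the counts were 4901 in the well with indexes N709 and S505, 3840 in N705-S503, 3183 in N705-S506, 2441 in N710-S504, 88 in N712-S505, 28 in N701-S503 and 18 in a well of discordant index labels. The genotypes overlapped, since the 4901 counts of N709-S505 exceeded those of all but 4 of the WT wells.

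*Lrrc15*, *Cox18* and *Pdzrn4* differed from these in that nearly all of their counts came from 1 to 3 WT wells. *Lrrc15* had 10426 counts in WT (52.7 CPM, 51.7 to 53.7) and 1 in Renin null (0.00251 CPM), a log2 ratio of −14.36 (−19.66 to −11.88). *Cox18* had 7253 counts (36.6 CPM, 35.8 to 37.5) and 1 count, a log2 ratio of −13.84 (−19.14 to −11.36). *Pdzrn4* had 17363 counts (87.7 CPM, 86.43 to 89.05) and 1 count, a log2 ratio of −15.09 (−20.40 to −12.62). Each of the single Renin null counts was in a different well, in YFP1 for *Lrrc15* and *Pdzrn4* and in YFP2 for *Cox18*. The width of these intervals shows how little 1 count fixes a ratio, and their order among themselves is within that width.

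All 5 genes had a log2 ratio of −3 or lower, the limit used here, as did 7.03% of the 18720 genes, and nothing is read from that since the contrast chose them. The median log2 ratio of all genes was 1.17. Whether a single run of tximport made the 2 tables, with 1 length correction for both, is not stated, and the ratios carry that limit. In the order of log2 ratio among the 6978 genes with at least 1000 WT counts, stood *Ren1*, *Pdzrn4*, *Myh6*, *Gm29776* (−14.39), *Lrrc15*, *Pced1a* (−13.95), *Klf8* (−13.92) and *Cox18*, followed by *Nlrp4c* (−13.42 against a floor of 3 counts), *Tgif2* (−13.38) and *Olfr1004-ps1* (−13.32). *Nlrp4c*, with 16367 WT counts and 0 in Renin null, stood after *Cox18*, whose 1 Renin null count was not raised to that floor. *Ccdc80* stood at place 633 of 6978, below *Krba1*, *Map4k3* and *D5Ertd579e* (each −3.39) and above *Rgma* (−3.38), *Dbp* (−3.38) and *Slc2a10* (−3.37). Of the genes that stand next to these, *Gm29776*, *Pced1a*, *Klf8*, *Nlrp4c* and *Olfr1004-ps1* each had over 99% of their WT counts in 1 well, namely wells 28, 43, 47, 9 and 19. *Tgif2* had 63.5% in well 14. Of those next to *Ccdc80*, *Rgma* had 99.5%, *Map4k3* 99.5% and *Slc2a10* 96.8% in 1 well, *Krba1* 78.4%, *D5Ertd579e* 76.3% and *Dbp* 59.5%.

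Per kilobase of annotated exons, the scale on which levels of different genes can be compared, *Ccdc80* and *Myh6* were close in WT at 96.5 and 86.7 CPM per kb. *Pdzrn4* was at 18.5, *Cox18* at 13.5 and *Lrrc15* at 9.92 CPM per kb. *Ren1* was at 57950 CPM per kb on the same scale. In Renin null *Ccdc80* was at 9.28 CPM per kb and the other 4 were below 0.01.

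A count in a well need not come from the cell in it. The WT wells were told apart by 12 i7 and 5 i5 indexes, and a well shared an index with 6 to 15 other wells. The 2324 genes with at least 1000 WT counts and at least 80% of them in 1 well, leaving out *Ren1*, *EYFP* and the 5 genes, show how counts lay around a rich well. Such a gene had a count in 68.2% of the wells with the same i7 index, in 55.7% of those with the same i5 index and in 13.7% of those with neither. The median was 3.10 counts per 10000 in the rich well with a shared i7 index, 1.23 with a shared i5 index and 0 with neither. In YFP1 the shares were 30.5%, 24.2% and 25.4%, and in YFP2 34.2%, 31.1% and 27.5%, so that the pattern was much flatter in the Renin null libraries.

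*Pdzrn4* followed the WT pattern most plainly. Well 28 had 17289 of its 17363 WT counts (99.6%). All 3 other wells with its i7 index, N707, had a count, at 2, 2 and 14. Of the 11 other wells with its i5 index, N503, 10 had a count, with a median of 4 and a highest of 8. Of the 36 wells with neither index, 5 had a count, of 1 each. *Lrrc15*, from well 43, had a count in 3 of 3 wells with the same i7 index, 9 of 11 with the same i5 index and 4 of 36 with neither, of which 1 was well 10 with 1545 counts. *Cox18*, also from well 43, had a count in 3 of 3, 9 of 11 and 6 of 36.

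**Figure D2:**
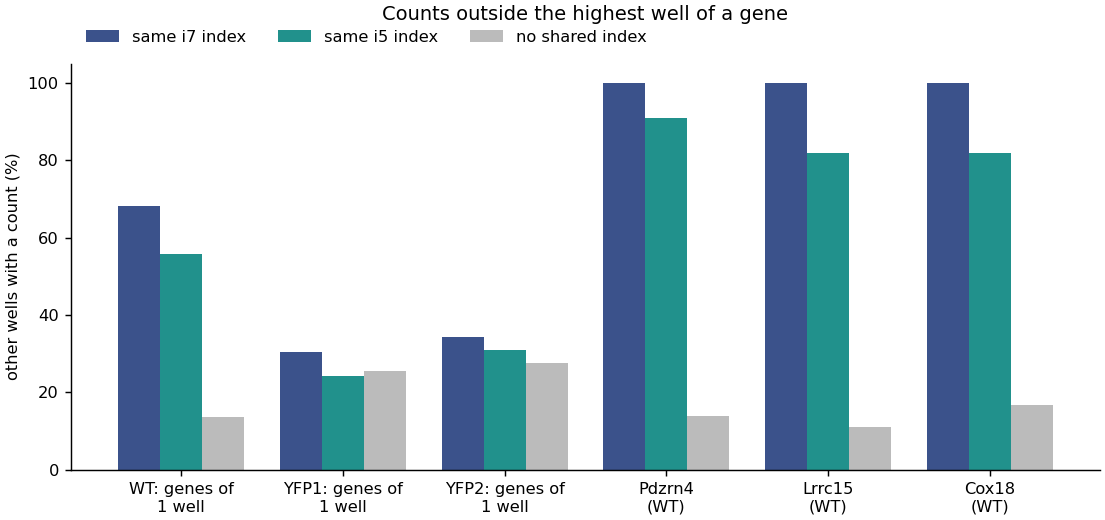
Share of the other wells, in percent, with at least 1 count of a gene, by whether they share the i7 index, the i5 index or no index with the gene's highest well. The left groups are genes with at least 80% of a library's counts in 1 well (2324 in WT, 2471 in YFP1, 1910 in YFP2) and the right groups are *Pdzrn4*, *Lrrc15* and *Cox18* in WT. The bars differ by index in WT, where *Pdzrn4* was counted in all 3 wells with the same i7 index and in 13.9% of the 36 with none.

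A well was therefore said to hold a gene only where its count was above 3 and above a shared-index level. That level is the summed counts of all wells that share an index with it times the 95th percentile of the single-well genes (20.3 per 10000 in WT). The rate was 27.2 per 10000 in YFP1 and 65.2 in YFP2, so the measure was stricter there. In those libraries wells with no shared index reached 29.5 and 46.2 per 10000 at the same percentile, so the rate there is not particular to shared indexes. In WT such wells reached 12.8 per 10000, so the WT rate is not wholly particular to shared indexes either. By this measure 12 of 51 WT wells held *Myh6* (23.5%, exact Clopper-Pearson interval 12.8% to 37.5%), against 43 wells with any count. The number rests on the rate chosen, with 29 wells at the median rate of the single-well genes and 4 at the highest, and the interval does not cover that choice. The 12 wells had 99.7% of its counts. By the same measure 1 of 94 Renin null wells, the shallow well 71, held it. Well 6 had 37546 counts, well 44 had 26379, well 18 had 14166, well 40 had 12602, well 43 had 11008 and well 10 had 8343. Well 28 had 2308 counts, well 5 had 1815 and well 31 had 781. The last 3 were marginal, well 7 at 74.1 CPM against a level of 68.3 CPM there, well 50 at 88 counts against 28.9 and well 29 at 11 against 6.54. Among the wells that did not hold *Myh6*, all 8 with i5 index N503, all 10 with N505 and all 10 with N506 had a count of 1 to 23, against 3 of 10 with N504, whose holding wells were the marginal wells 7 and 29. N507 did not follow this, since its 2 holding wells had 10158 counts together and its 1 other well had none.

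*Ccdc80* was likewise held by 12 WT wells (24 at the median rate, 6 at the highest) and counted in 43. Well 6 had 28251 counts, well 18 had 19211, well 8 had 14551, well 33 had 13281, well 50 had 3175 and well 10 had 1413. Well 3 had 969 counts, well 40 had 356, well 43 had 312, well 31 was at 36.0 CPM, well 47 had 95 and well 51 had 10, the last against a level of 7.63. In Renin null it was held by 8 of 94 wells (8.51%, 3.75% to 16.1%), 2 in YFP1 and 6 in YFP2. Among wells that passed the limits on depth, genes and mitochondrial counts, 9 of 15 held it in WT and 7 of 56 in Renin null. The rate behind the measure was higher in the Renin null libraries, so these shares do not compare directly. Within holding wells the levels overlapped, from 5.38 to 2520 CPM in WT and from 7.10 to 675 CPM in Renin null.

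*Lrrc15* was held by WT wells 43 (8842 counts) and 10 (1545 counts). *Cox18* (6 wells at the median rate, 3 at the highest) was held by wells 43 (5552 counts), 14 (1570 counts) and 10 (89 counts). *Pdzrn4* was held by well 28 alone (10 wells at the median rate, 1 at the highest), and its next highest well had 14 counts against a level of 35.0. In the Renin null libraries none of the 3 was held by any of 94 wells. That allows a share of up to 3.19% by the limit of 3 wells and up to 3.85% by the exact Clopper-Pearson interval. Their WT shares were 1.96% (0.0496% to 10.4%) for *Pdzrn4*, 3.92% (0.478% to 13.5%) for *Lrrc15* and 5.88% (1.23% to 16.2%) for *Cox18*, and since wells of 1 library are not replicates and the genes were chosen for this contrast, the genotypes were not compared on them. Of the WT counts behind the ratio of *Pdzrn4*, 99.6% were those of 1 well. Without the highest well of each genotype the log2 ratios, against a floor of 3 Renin null counts, were −10.16 for *Lrrc15* (without WT well 43), −10.26 for *Cox18* (without WT well 43) and −5.71 for *Pdzrn4* (without WT well 28). The same step gave −15.76 for *Myh6* and −3.36 for *Ccdc80*.

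**Figure D3:**
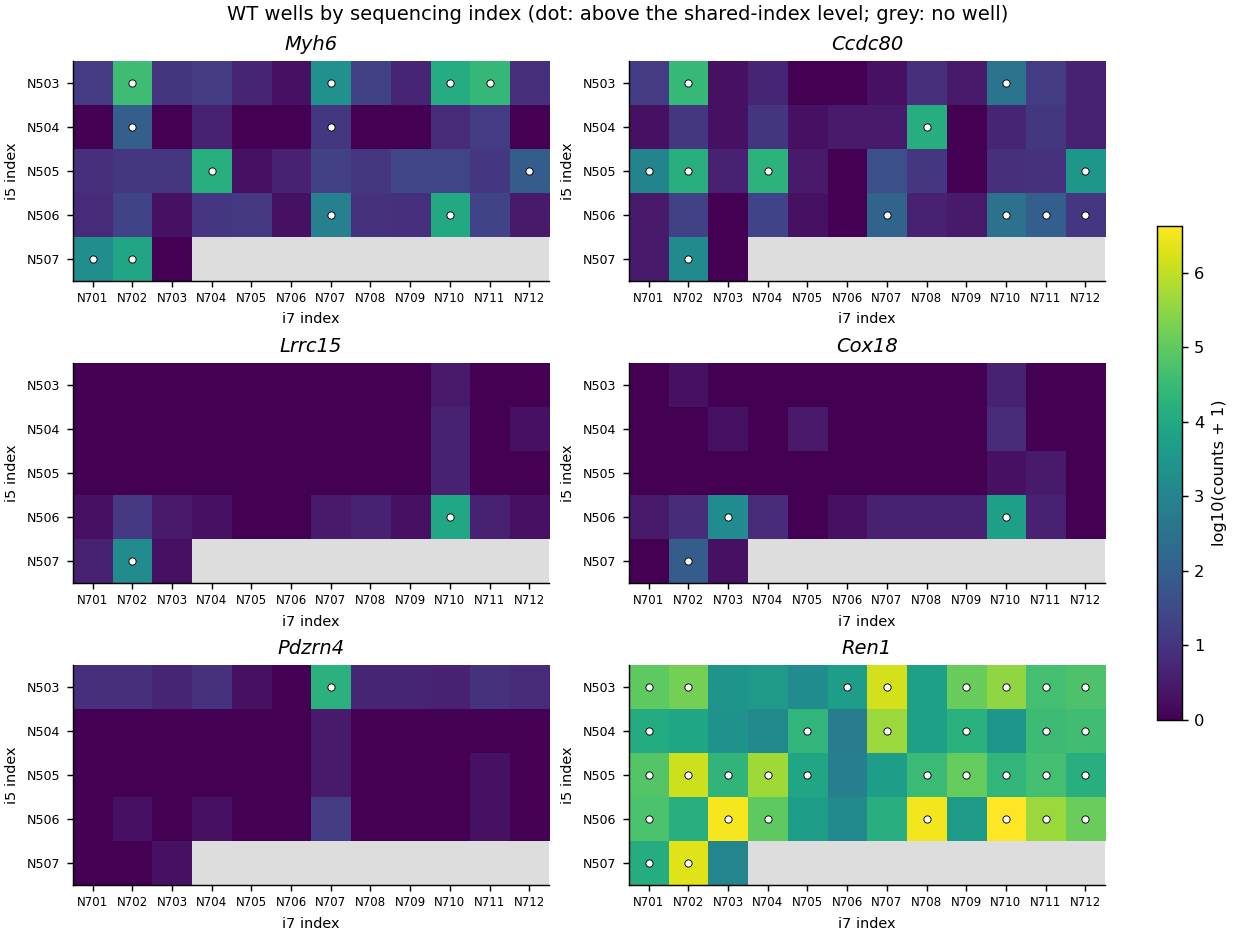
WT wells laid out by i7 index (columns) and i5 index (rows), coloured by log10(counts + 1) for each of the 5 genes and *Ren1*. Dots mark the wells that hold the gene and grey marks index pairs without a well. *Pdzrn4*, *Lrrc15* and *Cox18* form a cross of low counts through their rich wells, and *Myh6* has low counts along all of N503, N505 and N506.

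Such concentration was common in this library. Of the 6978 genes with at least 1000 WT counts, 33.3% had at least 80% of them in 1 well and 89.4% had at least 30%. The share in the highest well was 32.5% for *Myh6* and 34.5% for *Ccdc80* (both well 6), 84.8% for *Lrrc15* and 76.5% for *Cox18* (both well 43) and 99.6% for *Pdzrn4*, beside a median of 63.7%. A gene was held by 6 WT wells at the median. Genes held by 12 wells or fewer made 83.9%, by 3 or fewer 26.7%, by 2 or fewer 15.9% and by 1 or fewer 5.39%. With 3 or fewer Renin null counts there were 76 genes (1.09%), of which 71 (93.4%) were held by 3 WT wells or fewer, and the median share in the highest well of the 76 was 99.5%. *Lrrc15*, *Cox18* and *Pdzrn4* are 3 of these 76. *Myh6*, at 9 Renin null counts, was among the 1.45% of genes with 10 or fewer.

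**Figure D4:**
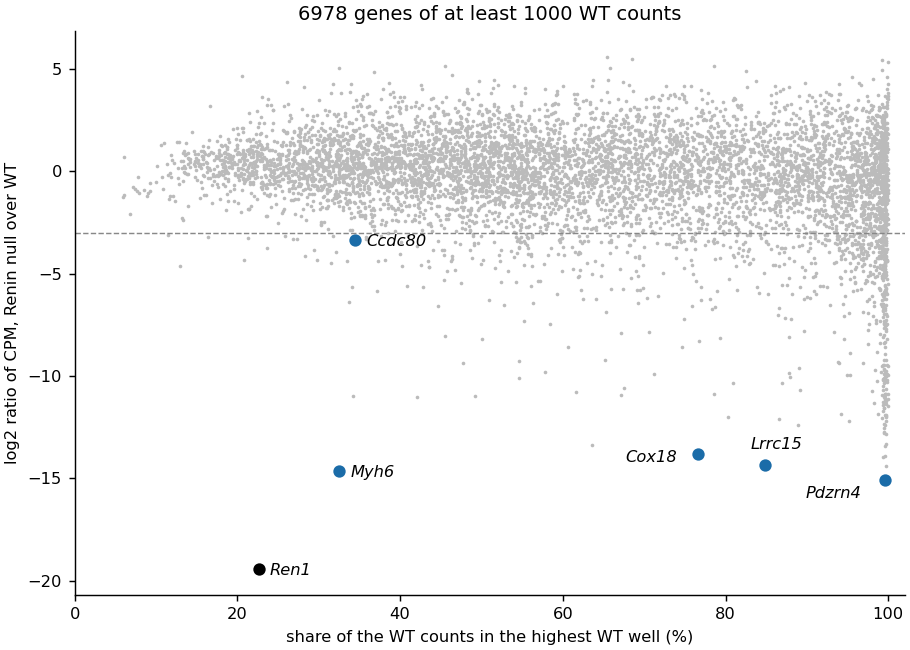
Log2 ratio of CPM, Renin null over WT, against the share of a gene's WT counts in its highest WT well, for 6978 genes with at least 1000 WT counts. Named points are the 5 genes and *Ren1*, and the dashed line is a log2 ratio of −3. Most genes of very low ratio lie at the right edge with *Pdzrn4* (99.6%), while *Myh6* (32.5%) lies far to the left of them.

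The wells that held these genes were few and overlapped. At least 1 of the 5 was held by 18 WT wells, of which 10 held 1 gene, 6 held 2 and 2 held 4. Wells 10 and 43 held 4 each, all but *Pdzrn4*. *Myh6* and *Ccdc80* were held together by 7 wells (6, 10, 18, 31, 40, 43 and 50), which is 58.3% of the wells of each. Both wells with *Lrrc15* and 2 of the 3 wells with *Cox18* also held *Myh6* and *Ccdc80*, and *Pdzrn4* shared its well with *Myh6*.

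Holding wells were also the deeper wells. Their median was 8805385 counts, 5569 genes and 7.67% mitochondrial counts, against 1025509 counts, 2952 genes and 64.5% in the 33 wells that held none, and 9 of the 10 deepest WT wells held at least 1. Of the 15 WT wells that passed the limits, 13 held at least 1. Depth moved with detection of these genes, and its part in the result was not tested beyond thinning. Each well was thinned to 62000 counts, which left out 2 WT and 13 Renin null wells. *Myh6* then had a count in 42.9% of 49 WT wells (84.3% unthinned) and in 0 of 83 Renin null wells (4.17% unthinned). The latter allows up to 3.61% by the limit of 3 wells and up to 4.35% by the exact interval. *Ccdc80* had a count in 32.7% and 7.23% (84.3% and 31.2% unthinned). *Lrrc15* had a count in 4.08% of WT wells, *Cox18* in 10.2% and *Pdzrn4* in 12.2%, and each in 0 of 83 Renin null wells. The genes were chosen for this contrast, so the thinned values are a description too. Thinning matches total counts only, not the mitochondrial share, and the WT wells with a count include wells under the shared-index level.

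The relation to *Ren1* was weak for the genes held by many wells. Over 51 WT wells of 1 library, the Spearman correlation of log2(CPM + 1) with *Ren1* was 0.064 for *Myh6* and −0.0043 for *Ccdc80* (Pearson 0.12 and −0.02). It was 0.17 for *Lrrc15*, 0.23 for *Cox18* and 0.11 for *Pdzrn4* (Pearson 0.26, 0.33 and 0.16). Over the 15 wells that passed the limits the Spearman values were 0.46, 0.65 and −0.16. These points share indexes, and most values of the last 3 genes are counts at or under the shared-index level, so the figures describe this library only.

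Among holding wells, *Ren1* ranged widely, from 674 to 295210 CPM, as it did in wells that held none (563 to 313965 CPM). Its median was higher in wells that held a listed gene, at 46945 CPM against 19044 CPM. Mitochondrial counts are part of the CPM total, and their median share was 7.67% in these wells against 64.5% in the others. Over all WT wells *Ren1* CPM fell with that share (Spearman −0.43), so the difference in *Ren1* cannot be told apart from it. Of the 10 wells richest in *Ren1* counts, 9 held a listed gene, as did 9 of the 10 deepest wells. By *Ren1* CPM, wells 35, 36 and 1 (313965, 110800 and 101064 CPM) held none, yet stood above well 40 (82923 CPM) at place 10. *Myh6* was held by well 43, the well with the most *Ren1* counts (4294010, or 250747 CPM), and also by well 44 with 43500 *Ren1* counts (4979 CPM) and well 5 with 12961 (1149 CPM). *Ccdc80* was held by well 8 at 174290 *Ren1* CPM and by well 33 at 674 CPM, where the 5980 *Ren1* counts did not pass the shared-index level of *Ren1*. In all, 33 of 51 WT wells held *Ren1* by that measure and 18 had up to 15293 counts without passing it. Of the 18 wells that held a listed gene, 15 held *Ren1*. By contrast, each well with *Lrrc15*, *Cox18* or *Pdzrn4* was rich in *Ren1*. Wells 43, 14, 10 and 28 were places 1, 2, 4 and 5 in *Ren1* counts and places 4, 2, 6 and 7 in *Ren1* CPM. They were also deep wells, at 17124854, 11977021, 12216332 and 11635376 counts of all genes, against a WT median of 1525972. The part of depth in this was not tested. Well 35, with 3313807 *Ren1* counts, held none of the 5. The reporter *EYFP* had from 2095 to 20950 counts in 5 of the 18 holding wells and from 0 to 8 in the other 13.

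**Figure D5:**
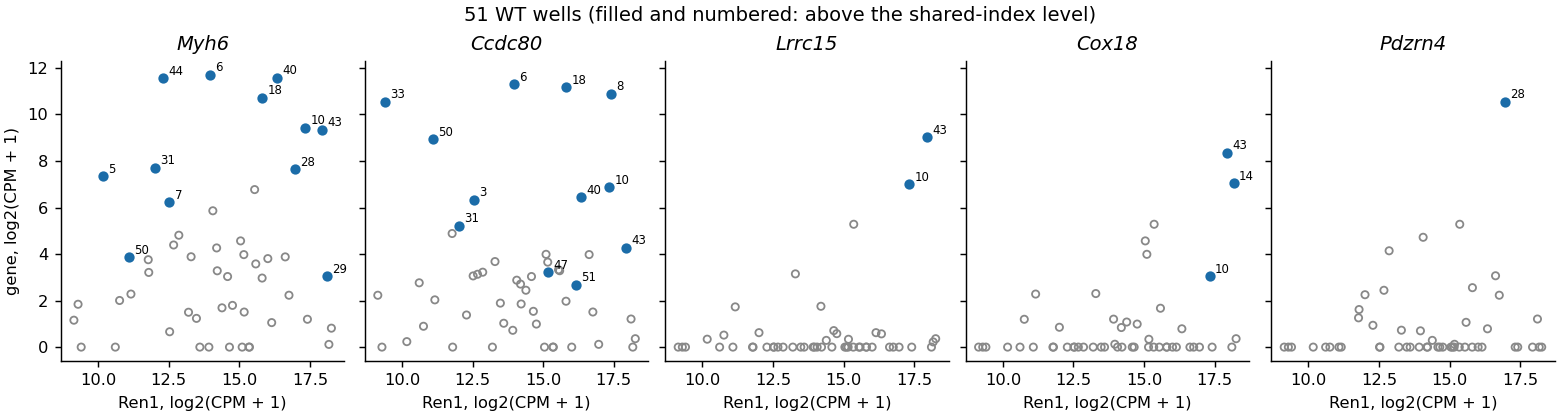
Level of each of the 5 genes against *Ren1*, both as log2(CPM + 1), in 51 WT wells. Filled, numbered points are wells that hold the gene and open points are the others. Wells that hold *Myh6* or *Ccdc80* spread over nearly the whole range of *Ren1*, and the wells that hold *Lrrc15*, *Cox18* or *Pdzrn4* lie at its upper end.

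The genes most alike to each across the 51 WT wells, among 5568 genes compared, followed the rich wells. For *Pdzrn4* they were *Gm29776* (Pearson r 0.91), *Amigo1* (0.88), *Lama3* (0.87), *Adamts4* (0.87) and *Nat10* (0.87), each with 99.7% of its counts in well 28. For *Lrrc15* they were *Wdr82* (0.94), *Armc5* (0.92), *Ccdc127* (0.91), *Ccdc90b* (0.91) and *Slc2a4* (0.88), all highest in well 43. For *Cox18* they were *Dnajc4* (0.91), *Tgfb2* (0.89), *Tomm5* (0.82), *Zfp110* (0.82) and *Lpin2* (0.81), of which 4 were highest in well 43 and *Dnajc4* in well 14. *Ccdc80* was most alike to *Rab8b* (0.79), *Smc3* (0.78), *Atp6v1g1* (0.78), *Jam3* (0.76) and *Psma6* (0.75). *Myh6* was most alike to *Acot2* (0.74), *Dyrk2* (0.69), *P3h2* (0.66), *Aamp* (0.65) and *Col18a1* (0.63), and none of these had its highest count in well 6. Of these 25 genes, 13 had a log2 ratio below 0, 5 were at −3 or lower and 1 was at 3 or higher. Among the 5568 genes they were drawn from, 51.2% were below 0, 9.29% at −3 or lower and 2.71% at 3 or higher. Of the 5 at −3 or lower, 3 were alike to *Pdzrn4*, namely *Gm29776* at −14.39, *Amigo1* at −3.53 and *Nat10* at −3.41, and the others were *Dyrk2* at −3.70 and *Armc5* at −3.44. *Lama3* was at −2.08 and *Adamts4* at 1.83, and *Slc2a4* was the highest at 3.50. The likeness and the ratio share the WT counts, so these counts are a description.

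Heart muscle genes other than *Myh6* went in both directions. Of 20 cardiac sarcomere and related genes, 14 had a ratio, 2 of them at −3 or lower and 7 at 3 or higher, with a median log2 ratio of 2.13 (7.03% and 29.9% of all genes, median 1.17). Ventricular and atrial myosin light chains (*Myl2*, *Myl7*), cardiac troponin I (*Tnni3*), cardiac actin (*Actc1*), both natriuretic peptides (*Nppa*, *Nppb*) and *Myh7b* were at 0 in all 51 WT wells. *Actc1* had 2538 counts in Renin null, a log2 ratio of at least 8.71 against a floor of 3 WT counts. Of these Renin null counts 2520 were in 1 well. *Myh7* was at 9809 and 264 counts (log2 ratio −6.23), with 64.1% of its WT counts in well 28 and at least 10 counts in 7 WT and 6 Renin null wells. It was at 541 CPM in well 28, 251 in well 50 and 38.0 in well 40, all wells that held *Myh6*. *Pln*, encoding phospholamban, a regulator of the calcium pump found in heart and smooth muscle, made most of the list's sum with 73184 and 64462 counts, a log2 ratio of −1.19. *Ryr2*, the cardiac ryanodine receptor, had 781 of its 1185 WT counts in well 44.

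Among 12 other myosin heavy chains, 9 had a ratio, 1 at −3 or lower and 1 at 3 or higher, with a median of 0.95 (all genes 7.03% and 29.9%, median 1.17). *Myh11*, the smooth muscle chain, was the most abundant with 2449 and 1637 CPM (log2 ratio −0.58) and had a count in all 51 WT wells. The nonmuscle chains *Myh9* and *Myh10* were at 0.95 and −2.59, and *Myh8*, the perinatal skeletal chain, was the highest at 7.76. Of the 13123 Renin null counts of *Myh8*, 12919 were in 1 well. The smooth muscle list had none of its 6 genes past 3 either way (all genes 7.03% and 29.9%), with a median of −0.01 and values from −0.58 (*Myh11*) to 0.86 (*Cnn1*). *Acta2* was at −0.02, *Tagln* at 0.61, *Smtn* at 0.01 and *Lmod1* at −0.31.

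The fibroblast matrix list was set beside *Ccdc80*. Of 16 genes, 15 had a ratio, none at −3 or lower and 9 at 3 or higher, with a median of 4.47, where 7.03% and 29.9% of all genes lay past those limits and the median was 1.17. *Lum* was at −0.20, with 4 and 7 counts. *Fbn1*, fibrillin-1, was the lowest at −1.72 and *Ltbp4*, which binds latent TGF-beta, the highest at 12.34. *Mgp*, matrix Gla protein, was the most abundant at 614 and 3754 CPM (2.61), followed in WT by *Sparc* at 384 CPM (2.04) and *Col1a2* at 164 CPM (1.10). *Dcn*, decorin, was at 5 and 15791 counts, and *Dpt* and *Col6a1* were at 0 in WT. WT well 33, which held *Ccdc80* and had little *Ren1*, also had 90.8% of the WT counts of *Col6a3*, 64.6% of *Col3a1* and 63.7% of *Fn1*, and its summed matrix level was 3004 CPM. Wells 6, 8 and 18, the other rich wells of *Ccdc80*, were at 1770, 2843 and 373 CPM. Among these rich wells the matrix sum did not rank with *Ccdc80*. Of all wells that held *Ccdc80*, well 51 was the lowest in both, at 5.38 CPM of *Ccdc80* and a matrix sum of 19.4 CPM. The relation over all its holding wells was not tested.

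The myofibroblast list was set beside *Lrrc15*. Of 12 genes, 10 had a ratio, 1 at −3 or lower and 2 at 3 or higher, with a median of 0.67 (all genes 7.03% and 29.9%, median 1.17). *Postn* and *Cthrc1*, markers of activated fibroblasts, were at 0 in WT and at 1 and 0 counts in Renin null, and *Pdgfra* had 6 and 253 counts. *Thbs2*, thrombospondin-2, was the lowest at −8.59, with 16632 and 87 counts and 74.7% of its WT counts in well 8. *Comp* was at 0 in WT and at least 8.96 higher on the log2 scale in Renin null, where 1 well had 2990 of its 3002 counts. *Pdgfrb*, a receptor of mural cells, made most of the sum with 503.5 and 83.4 CPM (−2.59). Wells 43 and 10, which held *Lrrc15*, had summed levels of 31.0 and 548 CPM for this list. Well 10 had at least 10 counts of 5 of the 12 genes, the most of any well that held a listed gene, and had 96.4% of the WT counts of *Fap* (28 in all) and 95.2% of those of *Tgfbr1* (436). Well 5, which did not hold *Lrrc15*, had the highest sum of these wells at 3837 CPM, where *Pdgfrb* with 43263 counts was the 1 gene with at least 10.

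For *Cox18* the comparison was with 23 other genes of cytochrome c oxidase and its assembly. Of these, 22 had a ratio, 3 at −3 or lower and 4 at 3 or higher, with a median of −0.10 (all genes 7.03% and 29.9%, median 1.17). The 3 were *Coa7* (−5.76, with 96.6% of its WT counts in well 3), *Pet117* (62 and 0 counts, −5.38 against a floor of 3) and *Cox15* (−4.63, with 99.6% in well 28). *Sco2*, a copper chaperone, was the highest at 6.71. *Cox17* and *Cox19*, also copper chaperones, were at 109.3 and 131.5 CPM in WT with ratios of −0.06 and −1.12. *mt-Co2*, the subunit whose insertion *Cox18* assists, had counts in every well of both genotypes and a ratio of −0.96. Well 43 had the largest *Cox18* count and 3029 CPM for the list, the largest part of it *mt-Co2*.

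*Pdzrn4* has 3 relatives in the LNX and PDZRN list. *Pdzrn3* was at 18608 and 467 counts (−6.33), with 97.4% of its WT counts in well 43 rather than in well 28. *Lnx1* was at 3 and 97 counts (4.00) and *Lnx2* at 1058 and 11808 (2.47). The highest WT well of *Lnx2* was also well 43, with 48.2% of its counts.

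Other genes of renin cells placed the *Ren1* contrast. Of 15 genes, 1 was at −3 or lower (*Ren1*) and 3 at 3 or higher, with a median of 0.14 (all genes 7.03% and 29.9%, median 1.17). *Akr1b7*, an aldo-keto reductase that marks renin cells, was at 4528 and 2011 CPM (−1.17), *Rgs5* at 11102 and 14156 (0.35) and *Crip1* at 1863 and 1789 (−0.06). *Agtr1a*, the angiotensin II receptor, was at 334 and 111.6 CPM (−1.58), *Adcy6* at 202 and 41.6 (−2.28), *Rgs2* at 483 and 503.7 (0.06) and *Gja4* at 105.1 and 123.9 (0.24). *Pde3b* was the highest at 6.35.

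Markers of other kidney cells varied by list, and among all genes 67.6% had a higher CPM in Renin null and 29.9% had a ratio of 3 or higher. The proximal tubule list summed to 27.9 CPM in WT and 322 in Renin null, with 4 of 6 genes at 3 or higher. It ran from *Slc22a6* (2.12) to *Slc5a2* (at least 8.23), and *Slc34a1* was its most abundant gene in WT and *Miox* in Renin null. The loop and distal tubule list summed to 0.515 and 109.4 CPM, from *Calb1* (3.79) to *Umod* (10.30). The collecting duct list summed to 10.6 and 45.7 CPM, with a median ratio of 0.69, *Slc4a1* at −7.55, *Atp6v1g3* at −1.38 and *Aqp2* at 4.67. Its sum was 2.96 CPM in YFP1, below WT, and 81.4 CPM in YFP2, above it. Among podocyte genes, 4 of 5 were at 3 or higher. *Synpo* was at 83.2 CPM in WT (1.01), *Nphs1* was at 5.81 and *Wt1* at 7.15, and *Podxl* had 0 and 37624 counts (at least 12.60). Single Renin null wells had 45147 of 56642 counts of *Nphs1*, 17966 of 19734 of *Wt1* and 28648 of 37624 of *Podxl*. Endothelial genes summed to 179 and 286 CPM, with 2 of 5 genes at 3 or higher. The Renin null libraries went in opposite directions from WT, at 35.7 CPM in YFP1 and 495 CPM in YFP2. *Ehd3* was the most abundant in WT (148 CPM, −0.97), *Pecam1* was at 2.09, *Emcn* at 2.69 and *Kdr* at 3.37, and *Cdh5* had 0 and 3585 counts (at least 9.21). Of the Renin null counts of *Cdh5*, 3442 were in 1 well. Macrophage genes summed to 0.925 and 3.93 CPM, and *Cd68*, *Adgre1*, *C1qa* and *Lyz2* were at 0 in WT. *Lyz2* had 165 counts in Renin null (at least 4.77), 160 of them in 1 well, and *C1qa* had 4 (at least −0.60).

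These markers were not evenly spread over the holding wells. Well 10, which held 4 of the 5 genes, had all WT counts of *Aqp2* (215), *Kap* (349) and *Slc12a1* (21), and its proximal tubule and collecting duct sums were 300 and 161 CPM, against at most 7.13 and 7.65 CPM in the other 17 holding wells. Well 43 had 98.7% of the WT counts of *Emcn* and 74.6% of *Ehd3*, with an endothelial sum of 1559 CPM. Their part in the counts of the 5 genes was not tested. Without well 10 the log2 ratios were −14.64 for *Myh6*, −3.44 for *Ccdc80*, −14.22 for *Lrrc15*, −13.91 for *Cox18* and −15.19 for *Pdzrn4*.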

How the data were processed

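Single YFP-positive cells were profiled with SMART-Seq v4 and Nextera XT indexes. The authors deposited estimated counts for 35438 genes. Per the labels and methods, FastQC 0.11.5 and Trimmomatic 0.39 preceded Salmon 0.11.2 on GRCm38.p6, and tximport summed transcripts with lengthScaledTPM. Here the expected counts were rounded, summed per genotype, scaled to CPM and compared as a log2 ratio. A genotype without counts was given a floor of 3, and genes with at most 3 counts in each genotype have no ratio. Intervals at 95% are exact and cover counting error only, since PCR copies were not told apart. Where a share of wells was 0, the limit is 3 wells over the number of wells, with the exact limit beside it. The authors' SCTransform values were not used. The ratio and the measure of holding wells were tested on simulated data. There the measure called more wells holding than the limit first set for the test allowed, and that limit was then widened to the share a 95th percentile lets through, so single wells near their level are uncertain. Precision follows the depth of 26401 to 17124854 counts per WT well and 3628 to 14505243 per Renin null well.

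The members and all gene lists were chosen with earlier results of these data known. Named genes are the 5 genes and *Ren1*. They also include the 5 genes most alike to each by Pearson r of log2(CPM + 1) over 51 WT wells (at least 1000 WT counts and a count in at least 20% of wells). Of each list, the genes with the lowest and highest ratio and those over 100 CPM in WT are named, and next to each of the 5 genes the 3 above and 3 below in ratio. Other list members, among them genes at 0 and genes rich in single wells, were named after their values were seen. A gene that meets these rules, and the list sum that needs it, are not reported here. Alternatives were other scalings, each Renin null library, subsets of wells, other spread rates and thinning. Sums and intervals were computed with scipy 1.17.1, pandas 2.3.3 and numpy 2.4.6 under Python 3.11.15, figures were drawn with matplotlib 3.10.9, and TMM factors came from edgeR 4.0.16 (R 4.3.3).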

Additional observations from a re-analysis of the deposited data

How the results depend on the processing

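Over 14 alternatives of scaling and wells, the log2 ratio of each of the 5 genes stayed below 0. It ran from −17.88 to −3.54 for *Myh6*, from −5.79 to −2.35 for *Ccdc80*, from −15.06 to −0.65 for *Lrrc15*, from −14.54 to −0.91 for *Cox18* and from −15.80 to −0.90 for *Pdzrn4*, the highest value being in each case the difference of mean log2(CPM + 1), which counts wells at 0 equally with rich ones. By that measure 1 of the 5 genes and 56 of all genes (1316 in the ratio reported) were at −3 or lower, and the median of all genes was 0.13 in place of 1.17. With the mean over wells of CPM, and with YFP2 alone, 4 of the 5 genes were at −3 or lower. TMM factors moved the median of all genes to 0.47 and the number of genes at −3 or lower to 1824. Leaving out the highest well of each genotype moved the median to 1.84, and that number to 597.

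The number of holding wells rests on the spread rate. At the median rate of single-well genes, 29 WT wells held *Myh6*, 24 *Ccdc80*, 3 *Lrrc15*, 6 *Cox18* and 10 *Pdzrn4*. At the highest rate, 4 held *Myh6* and 6 *Ccdc80*, and the numbers of the other 3 genes were 2, 3 and 1. Over the 15 wells that passed the limits, the Spearman correlation with *Ren1* was −0.046 for *Myh6* and −0.16 for *Pdzrn4*, both of the opposite sign to that over 51 wells. It was −0.24 for *Ccdc80*, 0.46 for *Lrrc15* and 0.65 for *Cox18*. With CPM that left out *Ren1* and mitochondrial counts it was 0.0059 for *Myh6*. No paired analysis was possible because each genotype is 1 sample and the wells carry no number that pairs them. Leaving out WT well 10, and counting wells with at least 10 counts among those that pass the limits, were chosen after seeing the data. The cause of these differences was not tested. Depth limits the 3 genes with 1 Renin null count, whose ratios no longer tell 1 count from none.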
